A study of Mus musculus with 18 samples.

Results

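Genes that mark the cells lining the third ventricle of the hypothalamus, 9 in all, were followed across 18 mouse libraries. Of these 9 genes, 6 were taken as tanycyte genes (Rax, Dio2, Crym, Col25a1, Gpr50 and Scn7a) and 3 as ependymal genes (Foxj1, Ccdc153 and Rarres2). They were chosen by name from their known expression in these cells, out of 56980 features in the count table, and where a symbol had several features the one with the largest total count was used. All 9 passed the filter on low counts, together with 11826 other genes.

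Hypothalamus was dissected from male C57BL/6JGpt animals that the deposited sample table lists as 7 months old, with 6 mice per group and 3 groups. In the TN-783 group, mice with diet-induced obesity (DIO) received TN-783, an oral inhibitor of the inflammasome sensor NLRP3, at 50 mg/kg by gavage 2 times a day. In the vehicle group, DIO mice received the vehicle on the same schedule. The high-fat food of both DIO groups began when the mice were 6 weeks old and lasted at least 16 weeks, and 14 days of vehicle gavage came before dosing. Dosing lasted 29 days in the labels and 28 days in the sample table. The lean group ate chow and was not dosed, so diet and dosing differ together between either DIO group and lean mice. Every mouse was wild type, and each library came from 1 animal.

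Tanycytes are elongated glial cells whose processes run from the ventricle floor into the arcuate nucleus and median eminence. They take up thyroid hormone, activate it and pass nutrient signals on to neurons, while the neighbouring ependymal cells carry motile cilia that move cerebrospinal fluid. Because RNA came from pieces of tissue, fewer cells of a type and less RNA per cell cannot be told apart in any value given here.

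Library totals were 1993460 to 3589650 counts in TN-783, 1699650 to 2761380 in vehicle and 2069960 to 3695650 in lean samples. RNA integrity scores were 9.6 to 9.7 in TN-783, 9.5 to 9.9 in vehicle and 9.4 to 10 in lean samples. Hypothalamic transcripts were present in all groups, with a median CPM (counts scaled to the library total) of 149 for Pmch, the melanin-concentrating hormone gene, in TN-783, 178 in vehicle and 111 in lean samples. Agrp, a gene of arcuate neurons, had median levels of 8.26 CPM in TN-783, 3.53 in vehicle and 11.4 in lean samples. Lean replicate 6 stood apart from its group on the first principal component (26.9% of the variance), at -30.8 against 13.6 to 31.7 for the other lean libraries. Vehicle replicates 2 and 4 held transcripts of the anterior pituitary, with prolactin (Prl) at 1773 and 1273 CPM against at most 30.2 CPM in the other 16 libraries. Values without vehicle replicates 2 and 4 stand beside Dio2, Rax, Gpr50, Scn7a, the tanycyte sums and the list genes Mest, Mia, Prl, Gh and Cga, and values without lean replicate 6 beside Gpr50 and Foxj1.

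Promoter sequences were available from RefSeq for 5 of the 9 genes (Scn7a, Col25a1, Ccdc153, Dio2 and Gpr50; assembly GRCm38.p6, 250 bases before to 50 after the gene's start). Both strands were searched for 7 motifs: the X-box arm GTTNCCA and the full X-box, which is GTTNCC, 2 free bases, G, 2 free bases and AAC (RFX factors), GTAAACA (forkhead factors), TAATTA (homeodomain factors), AGGTCA (nuclear receptors), TGACGTCA (the cAMP response element) and CAAGTG (NKX2 factors). The full X-box was added after the Ccdc153 sequence was seen. A match was found in 2 of the 5 promoters, which are printed because Dio2 is the thyroid-hormone-activating gene of the set and Ccdc153 is the ependymal gene with a sequence. The capitals mark the motif.
Dio2: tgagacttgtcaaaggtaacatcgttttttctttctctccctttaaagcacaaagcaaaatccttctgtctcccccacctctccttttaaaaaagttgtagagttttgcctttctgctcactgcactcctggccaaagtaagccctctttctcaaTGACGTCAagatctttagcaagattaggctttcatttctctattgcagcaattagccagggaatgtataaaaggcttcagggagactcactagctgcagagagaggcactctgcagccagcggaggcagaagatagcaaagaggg
Ccdc153: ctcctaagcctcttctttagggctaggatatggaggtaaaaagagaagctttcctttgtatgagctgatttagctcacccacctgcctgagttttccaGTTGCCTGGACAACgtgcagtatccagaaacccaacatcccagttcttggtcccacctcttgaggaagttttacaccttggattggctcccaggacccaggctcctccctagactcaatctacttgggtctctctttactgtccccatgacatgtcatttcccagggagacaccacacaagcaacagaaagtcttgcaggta
The Dio2 promoter lies at chr12:90738989-90739288 on the minus strand, with the cAMP response element beginning at base -95 from the start. The Ccdc153 promoter lies at chr9:44240427-44240726 on the plus strand, with the X-box beginning at base -152. Among 32851 promoters of the same length, 1.79% held the first motif and 0.673% the second. No binding was measured here, and a match describes letters only.

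None of the 9 genes passed the test in any comparison. The groups were fitted together with edgeR's quasi-likelihood test, adjusted over all 11835 tested genes, and a gene was called at an adjusted p under 0.05. For TN-783 against vehicle 0 of 9 were called, where 0% of all genes were. For vehicle against lean 0 of 9 were called, with a background of 0.00845% of all genes. For TN-783 against lean 0 of 9 were called, again with a background of 0%. DESeq2 also called 0 of 9 in each. At an unadjusted p under 0.05, TN-783 against vehicle gave 0 of 9, with a background of 2.61% (1.02% higher and 1.59% lower). TN-783 against lean gave 0 of 9, with a background of 8.16% (3.81% higher and 4.35% lower). Vehicle against lean gave 2 of 9, Dio2 on the higher side and Gpr50 on the lower, with 10.9% of all genes past that limit, 5.32% higher and 5.55% lower. The groups compared overlapped for all 9 genes in all 3 comparisons. Of all genes, 0.0676% had groups that did not overlap for TN-783 against vehicle, 0.397% for vehicle against lean and 0.406% for TN-783 against lean. The comparisons share samples, so their values below stand side by side and are not independent.

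**Figure D1:**
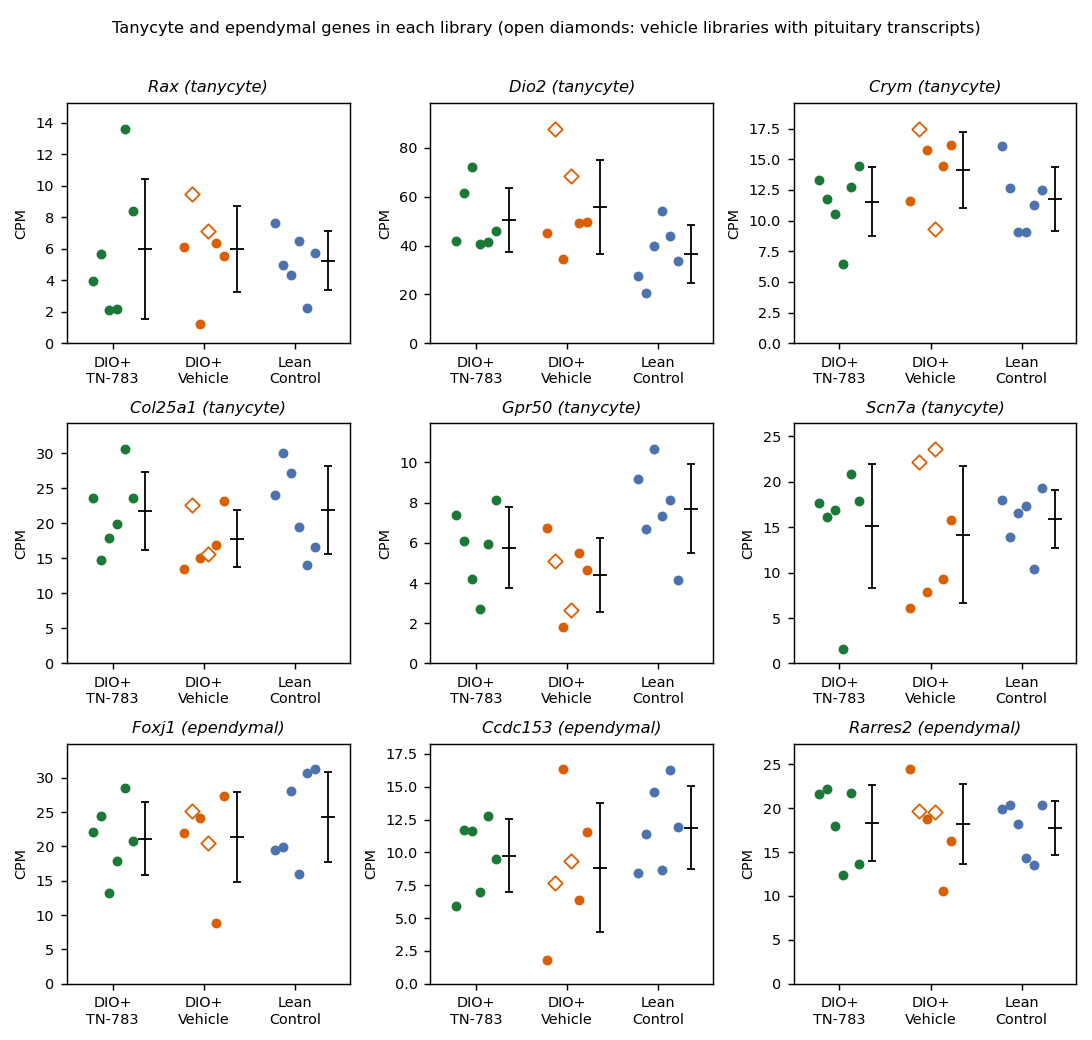
CPM of the 9 genes in each library, with DIO+ TN-783 at the left, DIO+ Vehicle in the middle and Lean Control at the right; bars show the mean and SD of 6 libraries, and open diamonds are vehicle replicates 2 and 4, which held pituitary transcripts. All groups overlap in every panel, and the open diamonds are the 2 highest vehicle values of Dio2 and Scn7a.

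Dio2 (ENSMUSG00000007682.9) encodes the deiodinase that turns thyroxine into the active hormone T3. Tanycytes carry out this step, but RNA from pieces of tissue does not show which cells the Dio2 transcripts came from. Its lowest, median and highest levels were 40.5, 43.9 and 72.3 CPM in TN-783, 34.5, 49.4 and 87.8 CPM in vehicle and 20.6, 36.9 and 54.1 CPM in lean samples. All 6 TN-783 libraries and 5 of 6 vehicle libraries lay above the lean median, though each DIO group overlapped the lean range. The log2 fold change was -0.16 (SE 0.23, edgeR adjusted p = 1.00) for TN-783 against vehicle, 0.64 (SE 0.23, adjusted p = 0.358) for vehicle against lean and 0.48 (SE 0.24, edgeR adjusted p = 0.618) for TN-783 against lean.

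The high end of the vehicle range came from both libraries with pituitary transcripts. Dio2 was at 87.8 CPM in vehicle replicate 2 and 68.6 CPM in vehicle replicate 4, against 34.5 to 49.6 CPM in the other 4 vehicle libraries. Without both, the log2 fold change was 0.31 (SE 0.23, adjusted p = 0.629) for vehicle against lean, and its sign turned for TN-783 against vehicle, to 0.17 (SE 0.22). The value for TN-783 against lean stayed at 0.48 (SE 0.20, adjusted p = 0.587). Tshb, the gene of the thyrotropin beta chain, was singled out after its values were known. It was at 179 and 201 CPM in these 2 libraries, against group medians of 3.65 in TN-783, 2.28 in vehicle and 1.55 in lean samples. The part of pituitary tissue in the Dio2 values was not tested.

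With no filter on low counts, Dio2 was called for vehicle against lean (log2 0.62, SE 0.16, edgeR adjusted p = 0.0435). That was its only call among the alternatives listed in the closing section, whose adjusted p ran from 0.0435 to 0.664. The difference was of like size there and its SE was smaller.

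Crym encodes a cytosolic protein that binds T3. Its lowest, median and highest levels were 6.48, 12.2 and 14.5 CPM in TN-783, 9.35, 15.1 and 17.5 CPM in vehicle and 9.08, 11.9 and 16.1 CPM in lean samples. All 6 TN-783 libraries lay below the vehicle median, and the ranges overlapped. The log2 fold changes were -0.27 (SE 0.20, adjusted p = 1.00) for TN-783 against vehicle, 0.26 (SE 0.19, adjusted p = 0.605) for vehicle against lean and -0.0083 (SE 0.20) for TN-783 against lean.

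Rax encodes the homeodomain factor that marks the tanycyte lineage, and it was counted at a low depth of 2 to 32 counts per library. Levels were 2.11, 4.80 and 13.6 CPM (lowest, median, highest) in TN-783, 1.21, 6.23 and 9.47 CPM in vehicle and 2.26, 5.35 and 7.64 CPM in lean samples. The TN-783 range enclosed every value of the other groups except that of vehicle replicate 3. The fitted differences were 0.023 (SE 0.38) for TN-783 against vehicle, 0.24 (SE 0.39) for vehicle against lean and 0.26 (SE 0.38) for TN-783 against lean. Without vehicle replicates 2 and 4, which had the highest Rax of their group, the first was 0.35 (SE 0.46) and the second -0.090 (SE 0.47).

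Gpr50 encodes an orphan receptor related to the melatonin receptors and had the lowest unadjusted p of the 9 genes, again for vehicle against lean. Its lowest, median and highest levels were 2.698, 6.02 and 8.15 CPM in TN-783, 1.81, 4.87 and 6.72 CPM in vehicle and 4.16, 7.74 and 10.7 CPM in lean samples. All 6 vehicle libraries and 5 of 6 TN-783 libraries lay below the lean median. Lean replicate 6, the library that stood apart, held the low lean value, and without it the lean libraries reached down to 6.70 CPM, just under the vehicle high. The log2 fold change was 0.42 (SE 0.30, adjusted p = 1.00) for TN-783 against vehicle, -0.80 (SE 0.29, adjusted p = 0.358) for vehicle against lean and -0.38 (SE 0.27, edgeR adjusted p = 0.661) for TN-783 against lean. For vehicle against lean its 95% interval was -1.39 to -0.21, a fold of 0.383 to 0.867. Without lean replicate 6 the value was -0.90 (SE 0.28, edgeR adjusted p = 0.0659), the lowest adjusted p on leaving out 1 library, and without vehicle replicates 2 and 4 it was -0.71 (SE 0.33). Depth was 3 to 31 counts per library.

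Scn7a encodes the sodium channel Nax, a sensor of sodium in glia of organs beside the ventricles. It was at 1.62, 17.3 and 20.8 CPM (lowest, median, highest) in TN-783, 6.11, 12.5 and 23.6 CPM in vehicle and 10.4, 16.9 and 19.3 CPM in lean samples. The SD was largest in the vehicle group, with vehicle replicates 2 and 4 at 22.2 and 23.6 CPM and the other 4 at 6.11 to 15.7 CPM. The log2 fold changes were 0.079 (SE 0.35) for TN-783 against vehicle, -0.11 (SE 0.35) for vehicle against lean and -0.033 (SE 0.34) for TN-783 against lean. Without those 2 libraries the first was 0.63 (SE 0.37, adjusted p = 1.00) and the second -0.66 (SE 0.37, adjusted p = 0.521). Neither estimate passed the test.

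Col25a1 encodes a membrane-bound collagen. Its levels were 14.8, 21.8 and 30.6 CPM in TN-783, 13.4, 16.3 and 23.2 CPM in vehicle and 14.0, 21.8 and 30.0 CPM in lean samples. The TN-783 and lean medians were alike and 5 of 6 TN-783 libraries lay above the vehicle median. The log2 fold change was 0.28 (SE 0.20, adjusted p = 1.00) for TN-783 against vehicle, -0.31 (SE 0.20, adjusted p = 0.561) for vehicle against lean and -0.028 (SE 0.19) for TN-783 against lean.

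Foxj1 encodes the forkhead factor that drives the building of motile cilia. It was at 13.2, 21.5 and 28.5 CPM (lowest, median, highest) in TN-783, 8.91, 23.1 and 27.3 CPM in vehicle and 16.0, 23.9 and 31.2 CPM in lean samples. The ranges overlapped, with 2 of 6 lean libraries above every TN-783 library and 3 of 6 above every vehicle library. Its log2 fold change was 0.0019 (SE 0.22) for TN-783 against vehicle, with a 95% interval of -0.45 to 0.45. It was -0.17 (SE 0.22) for vehicle against lean and -0.17 (SE 0.21) for TN-783 against lean. Without lean replicate 6, the highest lean library, these were -0.093 and -0.090. Leaving out any 1 library gave -0.26 to -0.0043 for vehicle against lean, the smallest without vehicle replicate 5, and -0.27 to -0.076 for TN-783 against lean, the smallest without TN-783 replicate 3.

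Ccdc153 encodes a coiled-coil protein of ciliated cells. Levels were 5.90, 10.5 and 12.8 CPM in TN-783, 1.83, 8.50 and 16.3 CPM in vehicle and 8.41, 11.7 and 16.3 CPM in lean samples. Vehicle libraries held both the lowest and the highest value, and 5 of 6 of them lay below the lean median. The differences were 0.16 (SE 0.29) for TN-783 against vehicle, -0.43 (SE 0.28, adjusted p = 0.567) for vehicle against lean and -0.27 (SE 0.27) for TN-783 against lean. For vehicle against lean it was -0.25 without vehicle replicate 1 and -0.65 without vehicle replicate 3. For TN-783 against lean it was -0.17 without lean replicate 5. The low vehicle value was 3 counts in replicate 1, for which counting error alone gives an exact 95% Poisson interval of 0.378 to 5.35 CPM.

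Rarres2 encodes chemerin, a secreted protein made by cells of the ventricular lining. It was at 12.4, 19.8 and 22.2 CPM in TN-783, 10.6, 19.2 and 24.4 CPM in vehicle and 13.5, 19.0 and 20.4 CPM in lean samples. The group means lay within 1 SD of each other, at 18.3 ± 4.33 CPM in TN-783, 18.2 ± 4.58 in vehicle and 17.8 ± 3.09 in lean samples (SD, n = 6 each). Its log2 fold change was 0.0097 (SE 0.19) for TN-783 against vehicle, 0.015 (SE 0.19) for vehicle against lean and 0.025 (SE 0.18) for TN-783 against lean, the last 2 of which turned negative with library size as the only scaling. Lrrc61 lies on the opposite strand of the same locus in GENCODE M21 and had 731 counts over all libraries, against 766 for Rarres2, and no source used here says whether the counting was stranded. Without strand, reads of the 2 genes cannot be told apart.

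**Figure D2:**
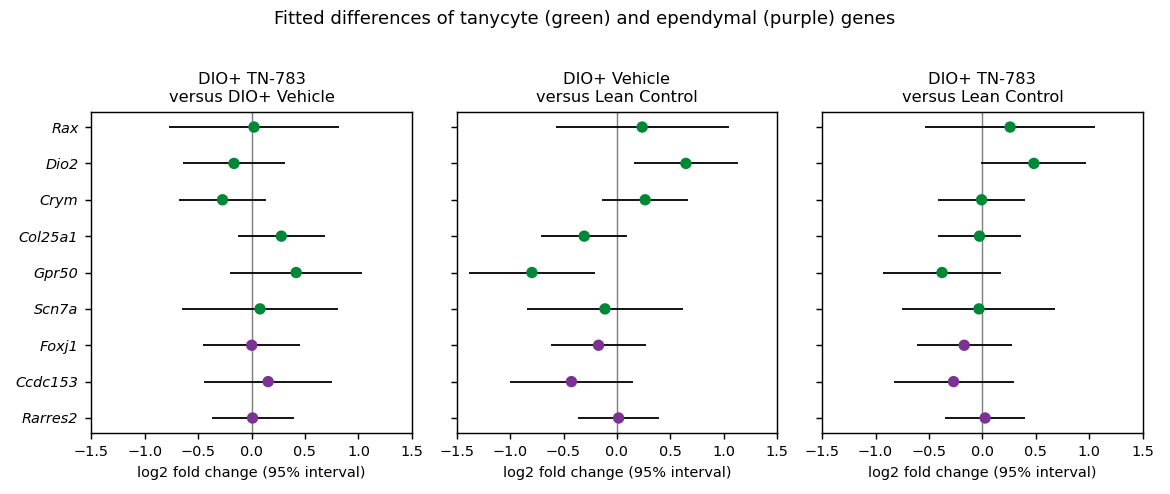
Fitted log2 fold change of each gene with its 95% interval (horizontal axis), for TN-783 against vehicle, vehicle against lean and TN-783 against lean; tanycyte genes are green and ependymal genes purple. The 2 intervals that leave out 0 are those of Dio2 (0.15 to 1.13) and Gpr50 (-1.39 to -0.21) for vehicle against lean.

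The tanycyte genes did not share a direction. For vehicle against lean, 3 of 6 were higher and 3 lower, with a median log2 fold change of 0.062 against 0.0072 over all genes tested. For TN-783 against vehicle 4 of 6 were higher with a median of 0.051, against -0.0047 over all genes. The 3 ependymal genes had medians of 0.0097 for TN-783 against vehicle, -0.17 for vehicle against lean and -0.17 for TN-783 against lean. Summed over the 6 tanycyte genes, levels were 73.4 to 125 CPM in TN-783, 76.2 to 165 CPM in vehicle and 88.9 to 114 CPM in lean samples. Summed over the 3 ependymal genes they were 37.2 to 62.9 CPM in TN-783, 25.9 to 59.3 CPM in vehicle and 38.9 to 63.5 CPM in lean samples. The highest and the lowest tanycyte sums both came from DIO groups, and the lean range lay inside the vehicle range. Without vehicle replicates 2 and 4 the vehicle sums were 76.2 to 115 CPM. A sum weights each gene by its level. Dio2 alone gave 87.8 CPM of the highest tanycyte sum, 165 CPM in vehicle replicate 2, while Rax and Gpr50 had group medians of at most 7.74 CPM.

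Spread between animals differed among the genes. The biological coefficient of variation, the spread between animals of a group beyond counting error, was 40.4% for Scn7a and 39.2% for Rax, against 15.3% for the median gene tested. Dio2 was at 26.6%, Ccdc153 at 25.8%, Foxj1 at 22.7%, Gpr50 at 20.3% and Col25a1 at 19.7%. Crym (15.9%) and Rarres2 (17.0%) lay close to the median gene. This measure depends on the level of a gene, and the trend fitted at like level was 17.9% for Scn7a and 22.4% for Rax. Gpr50, Crym and Rarres2 lay below their own trends of 22.1%, 18.6% and 17.2%, and the other genes lay above theirs.

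Single libraries lay below their group mean in several genes at once. TN-783 replicate 4 lay below its group mean in all 6 tanycyte genes and all 3 ependymal genes, with Scn7a at 1.62 CPM, and it lay at -25.3 on the first principal component. TN-783 replicate 1 lay at -25.3 too, and was below its group mean in 2 of 6 tanycyte genes and 1 of 3 ependymal genes. Vehicle replicate 3 was below in 5 of 6 tanycyte genes and in 0 of 3 ependymal genes, while vehicle replicate 5 and lean replicate 4 were each below in 3 of 6 and 3 of 3. Vehicle replicate 2 was below in 0 of 9.

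**Figure D3:**
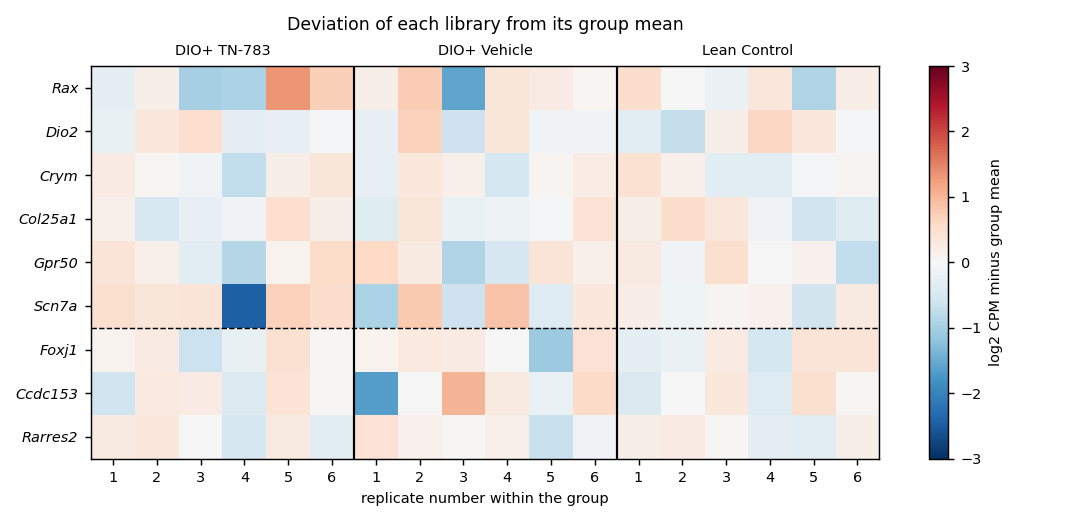
Deviation of each library from its group mean on the log2 CPM scale (color) for the 9 genes (rows; ependymal genes below the dashed line) and the libraries of DIO+ TN-783, DIO+ Vehicle and Lean Control (columns, left to right). TN-783 replicate 4 is below its group mean in every row, at -0.10 for Col25a1 and -2.45 for Scn7a. Vehicle replicate 5 and lean replicate 4 are below their group means in all 3 ependymal rows.

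Whether the genes rose and fell together between animals was tested on deviations from the group means, over 36 pairs and 18 libraries, permuting libraries within groups 100000 times. None of the 36 pairs passed after Benjamini-Hochberg adjustment, by Pearson's r or by Spearman's rho, and 2 had an unadjusted p under 0.05 for r. The 15 tanycyte pairs had a median r of 0.32 and were positive in 13. The 3 ependymal pairs had a median of 0.30 and the 18 mixed pairs 0.098. The negative tanycyte pairs were Dio2 with Crym (-0.23) and Dio2 with Col25a1 (-0.27). Of the ependymal pairs, Ccdc153 with Rarres2 was negative (-0.13). Without TN-783 replicate 4, r fell from 0.32 to 0.14 for Rax and Crym and from 0.38 to 0.13 for Crym and Gpr50. For Gpr50 and Scn7a it fell from 0.32 to -0.14, while for Col25a1 and Scn7a it rose from 0.32 to 0.44. Rax and Scn7a were the closest pair, with r = 0.57 and rho = 0.58 (two-sided permutation p = 0.0293 and 0.0098, adjusted 0.496 and 0.352). Their r was 0.69 without the 2 libraries farthest from the median of Rax, and 0.58, 0.54 and 0.89 within TN-783, vehicle and lean samples.

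The next 3 pairs by r were lower without 1 library each. Rax and Gpr50 had r = 0.52, which was 0.32 without vehicle replicate 3. Crym and Scn7a had r = 0.52, which was 0.022 without TN-783 replicate 4. Foxj1 and Rarres2 had r = 0.52, which was 0.20 without vehicle replicate 5. No relation of the 9 genes with RNA integrity passed. Pearson's r ran from -0.38 to 0.33 and rho from -0.38 to 0.36, with permutation p adjusted over 9 relations of at least 0.666 and 0.742. Without the 2 farthest samples r ran from -0.38 to 0.29. Within the 6 lean libraries alone r was -0.84 for Gpr50 and -0.72 for Col25a1, values given as a description. Gpr50 had r = -0.22 within TN-783 and 0.15 within vehicle samples, and Col25a1 had -0.45 and 0.24. Lean replicate 6 held both the highest lean integrity score (10) and the lowest lean Gpr50 level (4.16 CPM). With RNA integrity as a covariate, Gpr50 for vehicle against lean was -0.65.

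Other ependymal genes were like the 3 ependymal genes in their pattern across libraries. Likeness was Pearson's r of a gene's log2 CPM with the mean of the standardised members, over 18 libraries with group means removed. It is a description, since all points share libraries and depth. Of 24 further ependymal genes listed, 10 passed the filter on low counts, and 10 of these 10 had a positive r, with a median of 0.56 against -0.011 over 11826 genes. Leaving out any single library gave medians of 0.49 to 0.61. Rfx3, a transcription factor of ciliary genes, was highest of all tested genes at 0.84, followed by Ccdc32 (0.82), Plac9 (0.80), Fundc1 (0.79) and Fam241b (0.79). These are the top of 11826 values, whose other end was at -0.82. Dynlrb2, a dynein light chain gene, was at 0.68 and Cfap126, a cilium gene, at 0.65, both named after their values were seen. With the mean of the 6 tanycyte genes, 13 of 20 other tanycyte genes that passed the filter had a positive r, and their median was 0.15 against 0.029 over 11826 genes (0.096 to 0.28 on leaving out 1 library, and 0.10 without vehicle replicates 2 and 4). The highest in that list was the collagen gene Col23a1 at 0.71, named after its value was seen.

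Of all genes, those most like the tanycyte mean were Gm1673 (0.83), Bbs9 (0.81), Nop58 (0.80), Tagap1 (0.79) and Plec (0.78). The lowest r with that mean over 11826 genes was -0.79. Bbs9 encodes a subunit of the BBSome, which carries cargo to cilia, Nop58 a nucleolar protein and Plec the cytoskeletal linker plectin. For Bbs9 r was 0.93 and 0.92 within TN-783 and vehicle samples and 0.12 within lean samples, a difference that was not tested. Astrocyte genes ran the other way: r with the tanycyte mean was negative in 10 of 10, with a median of -0.43 (-0.50 to -0.28 on leaving out 1 library). With the ependymal mean their median was -0.029. Genes of the anterior pituitary list had a median r of 0.42 with the tanycyte mean and were positive in 4 of 4. They were Pomc (0.48), Gh (0.45), Cga (0.40) and Prl (0.35), with Pomc named after its value was seen. Genes of the pars tuberalis and posterior pituitary list had a median of 0.40 and were positive in 3 of 5. The highest of them was Tbx3 (0.62). Both medians were higher than that of the 20 other tanycyte genes, but the lists share genes. Cga (r = 0.40) is in both pituitary lists and gives the median of the second. Fgf10 (0.60), named after its value was seen, is in the second list and also among the 20 other tanycyte genes. Without vehicle replicates 2 and 4 the medians of the 2 pituitary lists were 0.37 and 0.34. Leaving out 1 library gave 0.24 to 0.55 for the first list and 0.21 to 0.53 for the second. Both were lowest without vehicle replicate 2 and highest without vehicle replicate 4. Choroid plexus genes had a median of -0.37 over 3 genes. Which cells gave the likeness of the pituitary lists was not tested, nor was the part of pituitary tissue in the tanycyte mean. The tanycyte and ependymal means themselves had r = 0.18 with each other.

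**Figure D4:**
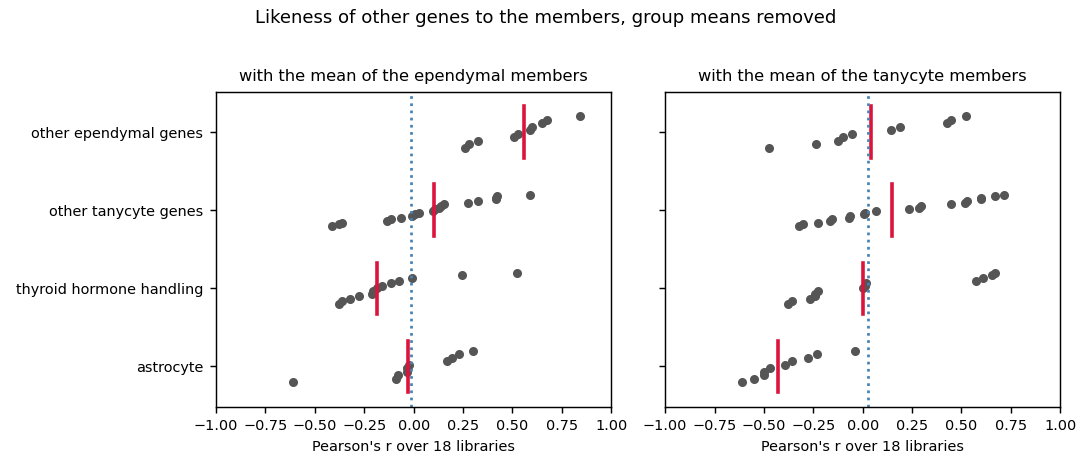
Pearson's r over 18 libraries of listed genes (points) with the mean of the ependymal genes (left panel) and of the tanycyte genes (right panel), group means removed; red bars are list medians and the dotted line the median of all tested genes. The 10 other ependymal genes all lie right of 0 in the left panel (median 0.56), and the 10 astrocyte genes all lie left of 0 in the right panel (median -0.43).

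The rest of the pathway genes were counted from lists. None of 22 other tanycyte genes (20 tested) was called in any comparison. At an unadjusted p under 0.05, 1 was higher and 2 were lower for vehicle against lean, and 0 and 2 for each of the other comparisons. Sox2, a transcription factor of neural stem and glial cells, averaged 120 ± 6.08 CPM in TN-783, 117 ± 6.14 in vehicle and 142 ± 12.0 CPM in lean samples (SD, n = 6 each). The highest DIO library was at 125 CPM and the lowest lean library at 126 CPM, so neither DIO group overlapped the lean group, as for 0.397% of all genes for vehicle against lean and 0.406% for TN-783 against lean. Its log2 fold change was -0.28 (SE 0.083, adjusted p = 0.283) for vehicle against lean and -0.25 (SE 0.083, edgeR adjusted p = 0.576) for TN-783 against lean, and Sox2 is also expressed outside tanycytes. Slit2, a guidance ligand, averaged 39.0 ± 6.19 CPM in TN-783, 37.2 ± 5.77 in vehicle and 52.0 ± 6.29 in lean samples, with differences of -0.48 (SE 0.12, adjusted p = 0.216) for vehicle against lean and -0.41 (SE 0.12, edgeR adjusted p = 0.567) for TN-783 against lean.

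For TN-783 against vehicle the 2 smallest p of that list belonged to Mest (-1.98, SE 0.63, adjusted p = 1.00) and the calcium-binding gene Necab2 (-0.51, SE 0.24, adjusted p = 1.00). Mest was at 58.7 and 45.4 CPM in vehicle replicates 2 and 4, the libraries with pituitary transcripts. Its TN-783 libraries reached at most 8.15 CPM, and the lean libraries at most 7.29 CPM. Without those 2 vehicle libraries the difference of Mest was -0.20 (SE 0.35).

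The thyroid hormone list (16 genes, 13 tested) had 0 called genes in the 3 comparisons. At an unadjusted p under 0.05 it had 1 higher gene for each DIO group against lean and 0 for TN-783 against vehicle. That gene was Klf9, a transcription factor induced by thyroid hormone and by glucocorticoids. Klf9 was at 233, 289 and 352 CPM (lowest, median, highest) in TN-783, 248, 289 and 321 CPM in vehicle and 172, 214 and 250 CPM in lean samples. The lowest libraries of both DIO groups overlapped the highest lean libraries. Its differences were 0.46 (SE 0.11, adjusted p = 0.207) for vehicle against lean and 0.45 (SE 0.11, edgeR adjusted p = 0.406) for TN-783 against lean.

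For TN-783 against lean, Trhde, which encodes an enzyme that degrades thyrotropin-releasing hormone, differed by -0.41 (SE 0.25, adjusted p = 0.637). For TN-783 against vehicle the 2 smallest p were those of the corepressor gene Ncor1 (-0.084, SE 0.081) and of Pgpep1, another peptidase gene (-0.14, SE 0.16).

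Among 24 other ependymal genes (10 tested) 0 were called. Their median log2 fold change was -0.047 for TN-783 against vehicle, -0.067 for vehicle against lean and -0.093 for TN-783 against lean. At an unadjusted p under 0.05, 1 was lower for TN-783 against vehicle, 1 was higher and 1 lower for vehicle against lean, and 0 passed for TN-783 against lean. Mlf1 had the smallest p for vehicle against lean (-0.99, SE 0.37, adjusted p = 0.358) at means of 3.44 ± 1.33 CPM in TN-783, 2.46 ± 1.59 in vehicle and 4.76 ± 1.11 in lean samples. Mia, a secreted-protein gene, differed by 1.16 (SE 0.48, adjusted p = 0.414) for vehicle against lean and -1.08 (SE 0.49, edgeR adjusted p = 1.00) for TN-783 against vehicle. It was at 48.5 and 35.6 CPM in vehicle replicates 2 and 4, against at most 21.3 CPM in the other 16 libraries. Without those 2 libraries both signs turned, to -0.045 (SE 0.34) for vehicle against lean and 0.13 (SE 0.34) for TN-783 against vehicle. Rsph1, a radial spoke gene, was at 0.38 (SE 0.22) for TN-783 against vehicle. Dynlrb2 was at -0.55 (SE 0.27, adjusted p = 0.618) and Tmem212 at -0.38 (SE 0.23) for TN-783 against lean.

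The retinoid and chemerin list (16 genes, 15 in the table, 8 tested) also had 0 called genes. Crabp1, which encodes a retinoic acid binding protein, averaged 10.8 ± 3.56 CPM in TN-783, 8.84 ± 2.08 in vehicle and 15.7 ± 3.63 CPM in lean samples. It differed by 0.32 (SE 0.22, adjusted p = 1.00) for TN-783 against vehicle, -0.82 (SE 0.21, adjusted p = 0.236) for vehicle against lean and -0.49 (SE 0.20, edgeR adjusted p = 0.611) for TN-783 against lean. Aldh1a1, a retinoic-acid-forming enzyme, differed by 0.46 (SE 0.28) for vehicle against lean and 0.44 (SE 0.28) for TN-783 against lean, and the receptor gene Rarb by 0.26 (SE 0.24) for TN-783 against vehicle.

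Markers of neighbouring tissues were summed beside these results. Choroid plexus genes summed to 112 to 136 CPM in TN-783, 117 to 163 CPM in vehicle and 105 to 132 CPM in lean samples, with 3 of 10 genes tested and 0 called. Anterior pituitary genes summed to 17.8 to 184 CPM in TN-783, 17.1 to 10861 CPM in vehicle and 38.8 to 63.8 CPM in lean samples, with 4 of 10 tested and 0 called. Pars tuberalis and posterior pituitary genes summed to 67.5 to 102 CPM in TN-783, 50.9 to 1158 CPM in vehicle and 59.7 to 88.5 CPM in lean samples. Leptomeningeal genes summed to 43.4 to 69.1 CPM in TN-783, 40.9 to 133 CPM in vehicle and 60.6 to 103 CPM in lean samples. These 2 lists had 5 and 4 of their 8 genes tested, and 0 called. Neuronal genes (8, all tested, 0 called) summed to 2462 to 3096 CPM in TN-783, 2270 to 3590 CPM in vehicle and 2371 to 3504 CPM in lean samples. Astrocyte genes (10, all tested, 0 called) had sums of 6319 to 8697 CPM in TN-783, 6026 to 8067 CPM in vehicle and 5796 to 7385 CPM in lean samples. Of the 10 astrocyte genes, 9 were higher for TN-783 against vehicle (median log2 0.030) and 8 were higher for each DIO group against lean, with medians of 0.23 for TN-783 and 0.215 for vehicle. At an unadjusted p under 0.05, 5 of 10 were higher for TN-783 against lean (3.81% of all genes were) and 2 of 10 for vehicle against lean (5.32% of all genes were). Of the 8 neuronal genes, 7 were lower for vehicle against lean (median -0.19) and 6 for TN-783 against lean (median -0.16). No listed gene was at 0 in every library of a group. The part of these tissues in the ventricular values was not tested.

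In each of those lists the 2 genes with the smallest p for vehicle against lean were as follows, on the log2 scale. Among choroid plexus genes they were Otx2 (0.78, SE 0.37) and Enpp2 (0.061, SE 0.12), and among astrocyte genes S1pr1 (0.27, SE 0.10) and the glutamate transporter gene Slc1a2 (0.22, SE 0.10). Prl (7.70, SE 1.85) and the growth hormone gene Gh (6.42, SE 1.703) led the anterior pituitary list, and Tbx3 (-0.99, SE 0.24) and Cga (5.14, SE 1.45) the list of pars tuberalis and posterior pituitary. Neuronal Eno2 was at -0.30 (SE 0.12) and Syt1 at -0.31 (SE 0.17), and the fibroblast collagen gene Col1a1 at -1.21 (SE 0.30) and Dcn at 0.66 (SE 0.40). The edgeR adjusted p of these 12 genes was at least 0.207. Gh was at 1049 and 1026 CPM and Cga at 797 and 879 CPM in vehicle replicates 2 and 4, against at most 22.9 and 31.8 CPM in the other 16 libraries. Without those 2 libraries the differences for vehicle against lean were 1.18 (SE 1.15) for Prl, -0.96 (SE 1.30) for Gh and -1.78 (SE 0.81) for Cga, the last 2 with the sign turned.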

How the data were processed

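Poly(A) RNA was sequenced from its 3' end with a kit that tags molecules, and amplified for 18 cycles, per the labels. The submitters' processing notes name, without roles, build GRCm39, R 4.5.1, edgeR 4.6.2, Salmon 1.10.1 and STAR 2.7.9a. The sources used here give neither the collapsing of tags nor the annotation and strand setting. The table that the authors deposited holds estimated counts per gene, and 12.0% of values were not whole. The authors deposited log2 CPM values, which differed by at most 1.60e-14 from values recomputed from the counts. The authors' deposited scaling factors are a ratio per library of 0.936 to 1.08, within 0.00109 of TMM (trimmed mean of M values) factors recomputed from the table. RNA integrity is the score that the authors deposited.

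Estimated counts were rounded to whole numbers, where the design had assumed counts. Genes were kept by edgeR's filterByExpr (minimum count 10), which left 11835, and the 3 groups were fitted together by the robust quasi-likelihood test after TMM scaling (edgeR 4.0.16, limma 3.58.1, R 4.3.3), with 15 residual degrees of freedom and a Benjamini-Hochberg threshold of 0.05. CPM values use TMM-scaled totals, and counting intervals are exact 95% Poisson intervals, which cover counting error only. The script was tested on simulated data. Correlations used Python 3.11.15 with numpy 2.4.6 and scipy 1.17.1.

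The 9 genes and all lists were chosen with earlier results of these data known. The genes named are the 9 members, the 2 genes with the smallest p in each list where none was called, and the 5 genes most like each set; others are said to be named after their values were seen. One gene that this rule names is not reported here. For lists of neighbouring tissues, neurons and astrocytes, genes are named for vehicle against lean only. Alternatives were DESeq2 1.42.0 with and without independent filtering, library size or median-ratio scaling, no filter or at least 1 CPM in 6 libraries, the 2 compared groups alone, RNA integrity as a covariate, a replicate block, leaving out each library, and leaving out vehicle replicates 2 and 4. The last 2 were added for likeness values, and the last for Mest, Mia, Prl, Gh and Cga, after the data were seen. Promoters come from RefSeq on GRCm38.p6, another build than the authors'; gene overlaps come from GENCODE M21.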

Additional observations from a re-analysis of the deposited data

Results flagged for a closer look

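Of 27 combinations of gene and group, 3 held a library set apart by Dixon's 95% limit, taken on log2 CPM. The measure is the distance from the nearest other library against the range of the group, and chance passes the limit in about 1 of 20 groups. All 3 were at the low end, where the log2 scale widens differences between small counts. The ratio was 0.703 for Rax, 0.893 for Scn7a and 0.733 for Foxj1, against a limit of 0.625. Rax was at 1.21 CPM (2 counts) in vehicle replicate 3, with the other vehicle libraries at 5.56 to 9.47 CPM. Scn7a was at 1.62 CPM (3 counts) in TN-783 replicate 4, with the other TN-783 libraries at 16.1 to 20.8 CPM. The exact 95% Poisson interval of that value, 0.334 to 4.73 CPM, lies below all of them. Foxj1 was at 8.91 CPM (21 counts) in vehicle replicate 5, with the other vehicle libraries at 20.5 to 27.3 CPM.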

How the results depend on the processing

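The count of the 9 genes called stayed at 0 in all 3 comparisons under the alternatives run, except that 1 (Dio2) was called for vehicle against lean with no filter on low counts (log2 0.62, adjusted p = 0.0435). Counts over all genes moved more: for vehicle against lean from 1 to 22 with DESeq2, 21 without its independent filtering, 126 with no filter, and 0 with at least 1 CPM in 6 libraries, with the 2 groups alone or without vehicle replicates 2 and 4. Leaving out 1 library gave 0 to 346, the highest when lean replicate 6 was dropped. The count was 6 on dropping vehicle replicate 5, 3 on dropping lean replicate 5, 2 on dropping vehicle replicate 3 or lean replicate 4, and 0 on dropping TN-783 replicates 5 or 6, vehicle replicates 1, 2, 4 or 6, or lean replicates 2 or 3. For TN-783 against lean the count was 0, and 10 with DESeq2, 5 without its independent filtering, 27 with no filter, 5 with the 2 groups alone and 2 with RNA integrity as a covariate. On leaving out 1 library it was 0 to 5, with 5 on dropping vehicle replicate 5 and 1 on dropping TN-783 replicate 3 or lean replicate 5. For TN-783 against vehicle it was 0, and 6 with no filter. The cause of these moves was not tested.

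Of 756 recomputed fold changes of the 9 genes, 57 changed sign, all of them values that did not pass the test. Leaving out 1 library gave, for TN-783 against vehicle, -0.024 to 0.38 for Ccdc153, -0.29 to 0.020 for Dio2, -0.17 to 0.097 for Foxj1, -0.11 to 0.10 for Rarres2, -0.35 to 0.22 for Rax and -0.055 to 0.29 for Scn7a. For vehicle against lean it gave -0.076 to 0.14 for Rarres2 and -0.31 to 0.023 for Scn7a. For TN-783 against lean it gave -0.15 to 0.093 for Col25a1, -0.096 to 0.0997 for Crym, -0.041 to 0.11 for Rarres2, -0.12 to 0.41 for Rax and -0.14 to 0.18 for Scn7a. Foxj1 for TN-783 against vehicle was -0.0020 with DESeq2, with or without its filtering. With RNA integrity as a covariate, Col25a1 for TN-783 against lean was 0.046, Rarres2 for vehicle against lean -0.00187 and Rax for TN-783 against vehicle -0.019. With library size as the only scaling, Rarres2 was -0.038 for TN-783 against lean and -0.064 for vehicle against lean, and with no filter it was -0.00618 for vehicle against lean. Without vehicle replicates 2 and 4, Dio2 for TN-783 against vehicle was 0.17, Rarres2 for vehicle against lean -0.061 and Rax for vehicle against lean -0.090. The same omission, added after the data were seen, turned Mia to 0.13, Prl to 0.88, Gh to 1.64 and Cga to 2.87 for TN-783 against vehicle, and Mia to -0.045, Gh to -0.96 and Cga to -1.78 for vehicle against lean, none of them called.

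Whether same-numbered samples of different groups belonged together was not tested. Deviations of same-numbered samples correlated at -0.29 to -0.041 for TN-783 against vehicle, -0.13 to 0.38 for vehicle against lean and -0.40 to 0.092 for TN-783 against lean. A fit with the replicate number as a block called 0 of the 9 genes in each comparison, and over all genes 0 for TN-783 against vehicle, 1 for vehicle against lean and 1 for TN-783 against lean. Under the block, for TN-783 against vehicle, Foxj1 was -0.0075 and Rax -0.0047. Rax had 2 to 32 counts per library and Gpr50 3 to 31, and how depth limits the differences of such genes was not tested.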
